A study of Mus musculus with 3 samples.

Results

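In a ChIP-seq map of mouse liver, 560 strong REV-ERB alpha binding sites lay more than 5 kb from every REV-ERB beta peak. They were taken from the 24461 peaks of the alpha list by 3 criteria: a position outside chromosome 8, at least 35 alpha tags (sequenced fragment ends) in the peak window, and no beta peak centre within 5000 bp of the alpha peak centre. Outside chromosome 8 the alpha list held 23046 peaks, of which 8409 had at least 35 tags. The far sites were therefore 6.66% of the strong alpha peaks and 2.43% of all alpha peaks outside chromosome 8. Chromosome 8 was left out because the beta list as used here had 0 peaks there. They were thus selected on alpha tag count and on distance to beta peaks, and the amount of beta signal at them was not measured here. A beta peak below the threshold of the beta list would also count as absent.

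REV-ERB alpha and REV-ERB beta, encoded by Nr1d1 and Nr1d2, are nuclear receptors that repress transcription. Both recognise a nuclear receptor half-site flanked by an A/T-rich stretch, alone or as a tandem pair, and recruit the NCoR corepressor with the histone deacetylase HDAC3. In liver they link the circadian clock, through repression of Arntl (Bmal1), to lipid and glucose metabolism. The pair is known for overlapping functions.

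All 3 libraries (an antibody against either receptor, and input) came from livers of male C57BL/6 mice aged 20 weeks that were held on a cycle of 12 hours light and dark for 3 days and taken at zeitgeber time 8, that is 8 hours after lights on. Chromatin was fixed first with disuccinimidyl glutarate, which links proteins to proteins, and then with formaldehyde. The labels name no genetic change or drug in any group, and do not say how many animals a library represents. Each antibody had 1 library, so no value has a replicate error, no test between receptors could be made, and intervals (95%) cover only the counting of peaks or tags, treated as independent. The alpha windows of 153 bp held 910669 tags in all and the beta windows of 210 bp held 1227074; the sources used here do not give library totals. Positions are in mm9. Sites are named by position, because mm9 genes and sequence were not used here.

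The tag counts and beta distances that follow chose the sites and are descriptions only. The far sites ranged from 35 to 423 alpha tags, with a median of 46.0 (quartiles 39.0 and 63.0). Most were close to the lower limit, and a long tail reached the top of the alpha list: 215 sites (38.4%) had over 50 tags, 65 (11.6%) over 100 and 29 (5.18%) over 150. The 6933 strong alpha peaks overlapped by a beta peak had a higher median, 54.0 tags (quartiles 43.0 and 75), but a like share over 100 tags (11.5%) and a lower share over 150 (3.04%). The remaining 916 strong alpha peaks, with a beta centre within 5000 bp but no overlap, had a median of 46.0 tags. The far sites held 34717 tags, or 4.05% of the tags in all alpha windows outside chromosome 8.

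The nearest beta centre lay at a median of 26302 bp from a far site (quartiles 11549 and 63044 bp). The sites were spread over the whole range: 125 (22.3%) lay between 5000 and 10000 bp away, 105 between 10000 and 20000 bp, 155 between 20000 and 50000 bp, 90 between 50000 and 100000 bp, and 85 (15.2%) beyond 100000 bp. Height hardly followed distance among them (Spearman rho 0.04 over 560 sites of 1 library). The median was 44.0 tags in the nearest of these classes and 45.0 in the farthest, and the share of sites over 100 tags was 5.60% in the nearest and 16.5% in the farthest.

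**Figure D1:**
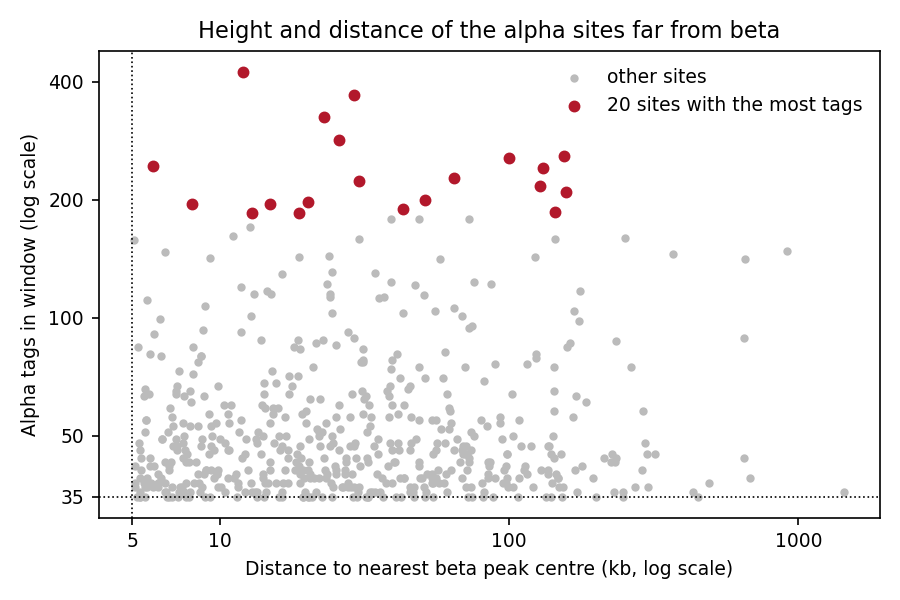
Each point is 1 of the 560 far sites; the x axis is the distance from its centre to the nearest beta peak centre (kb, log scale) and the y axis its alpha tags in the window (log scale). Dotted lines mark the limits of 5 kb and 35 tags; the 20 sites with the most tags (red, 185 to 423) lie at distances from 5901 to 157686 bp.

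The 20 tallest far sites, with 185 to 423 tags, lay on 13 chromosomes. The tallest was chr7:148414415-148414567, with 423 alpha tags at 191 unique positions, 8 input tags, and a nearest beta centre at 12066 bp; it ranked 3 in height among all alpha peaks outside chromosome 8. The second, chr13:54795257-54795409, had 369 tags at 187 positions, 4 input tags and a beta centre at 29234 bp. The third, chr11:59623358-59623510, had 324 tags at 179 positions, 4 input tags and a beta centre at 22942 bp. The beta peaks that lay nearest to these sites had 28, 60 and 24 beta tags, against a median of 39.0 in the beta list.

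Further down, chr5:121062714-121062866 held 284 tags and 6 input tags, 25898 bp from a beta peak of 201 tags. Over 100000 bp from any beta peak, sites of more than 200 tags were chr10:36694123-36694275 (259 tags, 155031 bp), chr18:14841353-14841505 (256 tags, 100123 bp), chr5:28117998-28118150 (241 tags, 131501 bp) and chr2:151931245-151931397 (217 tags, 127699 bp). A further one was chr9:35228768-35228920, with 209 tags at 157686 bp, and chr4:83132409-83132561 had 186 tags at 144045 bp. These sites had 4 to 7 input tags each, against a median of 4 and an upper quartile of 6 over all far sites.

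Between them in height were chr12:103213995-103214147, which had 244 tags and was closest to the limit of distance at 5901 bp, chr19:57685217-57685369 with 227 tags, chr13:67034100-67034252 with 223 tags and chr5:93522231-93522383 with 200 tags. Input was 9, 2, 11 and 1 tags at these sites. The list of 20 was completed by chr18:34918762-34918914 (197 tags), chr1:90156773-90156925 (195), chr15:75739767-75739919 (195), chr11:57458771-57458923 (189), chr5:115224655-115224807 (185) and chr9:20757298-20757450 (185). Of all 20, the site on chromosome 11 with 189 tags had the least input, 0 tags, and the site on chromosome 1 the most, 17 tags. In 19 of the 20 no other alpha peak lay within 5000 bp, which also held for 469 of all 560 far sites (83.75%). The nearest other alpha peak of these 20 held a median of 23.5 tags, and in 8 of 20 it was itself overlapped by a beta peak. Among the 469 far sites with no other alpha peak within 5000 bp, that share was 51.0%.

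Among the sites farthest from beta, height varied widely. The greatest distance, 1439195 bp, belonged to chr3:7613009-7613161, a low site with 36 tags. The second, chr17:95055810-95055962, was tall, with 148 tags against 2 input tags, at 914967 bp from a beta centre and 1147450 bp from any other alpha centre. Next came chr15:65169493-65169645 (39 tags, 678990 bp), chr16:3232725-3232877 (141 tags, 652706 bp) and chr1:128263448-128263600 (44 tags, 650575 bp). The chromosome 16 site also had the most input of all far sites, 28 tags.

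At the edges of the rule, 46 of 381 peaks with 35 tags were far from beta, and so were 57 of 370 peaks with 34 tags, which were not included. The sites that only just met the limit of distance were chr12:86451686-86451838 (158 tags, 5067 bp), chr7:121217688-121217840 (38 tags, 5081 bp) and chr7:148595197-148595349 (42 tags, 5092 bp). Those that only just missed it were chr15:27555836-27555988 (36 tags, 4963 bp), chr12:109513847-109513999 (56 tags, 4957 bp) and chr16:93798477-93798629 (36 tags, 4879 bp). Sites at the lowest height included chr4:151852084-151852236, which had the highest peak score among them (33), and chr16:28999913-29000065 and chr9:34983213-34983365, which were among several tied at a score of 32; they held 2, 3 and 3 input tags. Among the peaks just below it, with 34 tags, were chr12:84753311-84753463, chr17:56135582-56135734 and chr17:25357807-25357959, with 3, 5 and 7.

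The share of alpha peaks that were far from beta did not fall steadily with height. Over all alpha peaks outside chromosome 8 it was 26%, and among those under 35 tags 37.1%. It went down from 50.8% at 11 to 20 tags (Wilson interval 49.7% to 52.0%) to 10.3% at 35 to 40 tags (8.97% to 11.8%) and 3.58% at 71 to 100 tags (2.72% to 4.71%). Above that it was higher again, 5.45% at 101 to 150 tags (3.96% to 7.45%) and 11.5% at 151 to 456 tags, which was 29 of 252 peaks (8.13% to 16.0%).

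Among the tallest peaks, fewer of the beta list than of the alpha list lay far from the other receptor. To set the lists side by side, the 8409 beta peaks with the most tags were ranked like the 8409 strong alpha peaks. Of these beta peaks, 442 (5.26%, 4.80% to 5.75%) were more than 5000 bp from any alpha centre, against 6.66% (6.15% to 7.21%) for alpha. Among the 100 tallest of each list, 16 alpha peaks were far from beta (16.0%, 10.1% to 24.4%) and 0 of 100 beta peaks were far from alpha, which allows a share of up to 3.00% (3 counts; the Wilson upper limit is 3.70%). At ranks 101 to 500 the shares were 7% of alpha (4.89% to 9.93%) and 0.250% of beta (0.0441% to 1.40%), and at ranks 501 to 2000 they were 4.2% and 1.07%. In the lower ranks, 2001 to 8409, the lists were alike, with 7.07% (6.47% to 7.72%) and 6.63% (6.05% to 7.27%). These values compare 2 libraries of different window size and unknown depth. Both lists were ranked by all tags, and repeated tags were more common in the beta list. Median tags per unique position were 1.63 at far and 1.68 at overlapped beta peaks, against 1.24 and 1.23 for alpha.

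**Figure D2:**
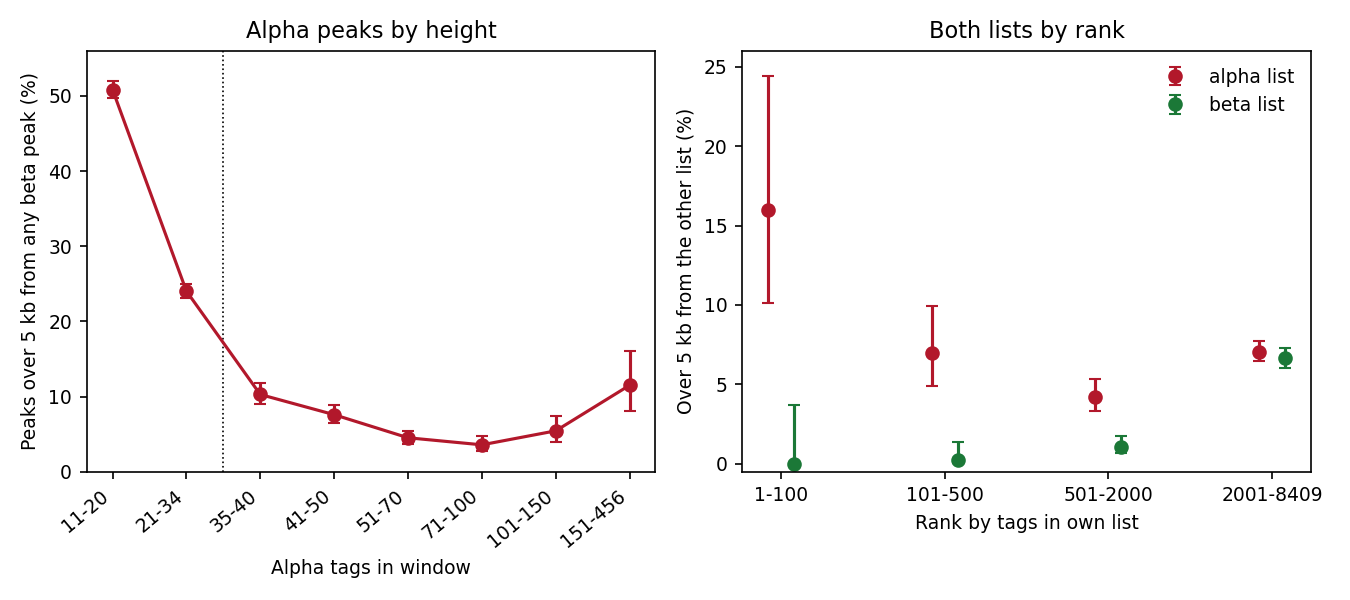
Left, percent of alpha peaks more than 5 kb from any beta peak by alpha tags in the window; right, the same for both lists by rank of tags in the own list; points are shares and bars 95% Wilson intervals. The alpha share has its lowest value of 3.58% at 71 to 100 tags and is 11.5% in the tallest class, and at ranks 1 to 100 it is 16.0% for alpha and 0 for beta.

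The far sites had more input tags than strong alpha peaks that coincided with beta. Input is sheared chromatin sequenced without an antibody. It was no criterion of the rule, but it entered through the lists: tags plus 1 over input tags plus 1 was at least 4 at every alpha peak and at least 3.93 in the beta sets compared here, so a place with high input needs more beta tags to be listed. The part of this floor of the beta list in the values below was not tested. The far sites had a mean of 4.59 input tags in the window (exact Poisson interval 4.42 to 4.77), the overlapped peaks 3.46 (3.41 to 3.50) and the peaks with a beta centre within 5000 bp but no overlap 4.09 (3.96 to 4.22). The far mean was thus 1.33 times the overlapped mean. Input was 0 at 23 far sites (4.11%, 2.75% to 6.09%) and at 8.25% of the overlapped peaks (7.63% to 8.92%). At least 10 input tags were found at 30 far sites (5.36%, 3.78% to 7.54%) and at 1.67% of the overlapped peaks (1.40% to 2.00%).

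Mean input was higher at far sites than at overlapped peaks in each height class. At 35 to 40 alpha tags the mean was 3.84 at far sites (3.56 to 4.13) and 2.90 at overlapped peaks (2.81 to 2.99). At 71 to 100 tags the means were 5.84 (5.18 to 6.55) and 3.79 (3.68 to 3.90), and at 101 to 150 tags 6.19 (5.41 to 7.06) and 4.07 (3.91 to 4.23). Above 150 tags the intervals overlapped, with 5.66 (4.82 to 6.59) at 29 far sites against 4.60 (4.31 to 4.90) at 211 overlapped peaks. Among sites with no other alpha peak within 5000 bp, the means in that class were 5.25 (4.44 to 6.17) and 4.90 (4.45 to 5.38). Far beta peaks showed a smaller ratio in the same direction, with a mean of 5.20 input tags in their windows against 4.34 at overlapped beta peaks, a ratio of 1.20. Alpha peaks with a beta centre within 5000 bp but no overlap also exceeded overlapped peaks in each class up to 150 tags. Their mean was 3.65 (3.43 to 3.87) at 35 to 40 tags. Above 150 tags it was 4.50, against 4.60 at overlapped peaks. Far alpha peaks of 21 to 34 tags had a mean of 2.64, against 2.35 at overlapped peaks.

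**Figure D3:**
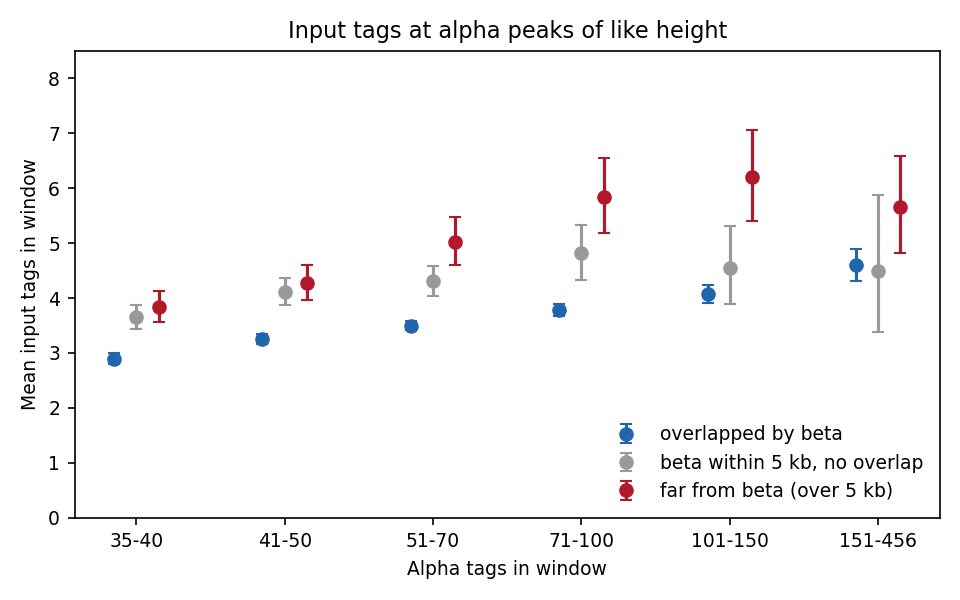
Mean input tags in the window (y axis) at strong alpha peaks by alpha tags (x axis), for peaks overlapped by beta (blue), with beta within 5 kb but no overlap (grey) and far from beta (red); bars are 95% exact Poisson intervals. The red point lies above the blue one in all 6 height classes, with means from 3.84 to 6.19 against 2.90 to 4.60.

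Alpha enrichment over input was lower at the far sites than at overlapped peaks. The far sites had more input but also a lower median height (46.0 against 54.0 tags), and enrichment was not compared at like height. Tags plus 1 over input tags plus 1 had a median of 10.1 at far sites (quartiles 6.64 and 18.0), against 15 (9.50 and 24.3) at overlapped peaks. This was also seen outside the far sites: the median was 10.8 at peaks with a beta centre within 5000 bp but no overlap, and in the beta list it was 10.9 at far and 19.0 at overlapped peaks. A ratio of at least 8 was reached by 360 far sites (64.3%) and by 83.9% of the overlapped peaks. The highest ratio of a far site was 190, at the chromosome 11 site with 189 tags and 0 input tags.

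Apart from chr16:3232725-3232877, the far sites with the most input were chrX:166432069-166432221 (24 input and 115 alpha tags), chr1:90155897-90156049 (19 and 107), chr1:90156773-90156925 (17 and 195) and chr4:132030670-132030822 (16 and 80). In 4 of these 5 sites, that on chromosome 4 excepted, the 10 kb around the window also held between 864 and 1408 alpha tags, against a median of 157 for all far sites. Both chromosome 1 sites are 876 bp apart and share nearly the same 10 kb, so these are 3 neighbourhoods. Without all peaks of at least 10 input tags, mean input was 4.13 at far sites and 3.32 at overlapped peaks.

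Median repeated tags were close at far sites and at overlapped peaks, but the upper end was higher at far sites. The median number of tags per unique position was 1.24 (quartiles 1.17 and 1.32) at far sites and 1.23 (1.16 and 1.30) at overlapped peaks. The 95th percentiles were 1.55 and 1.44, and 1.42 at peaks with a beta centre within 5000 bp but no overlap. By height class, the far median was higher at 35 to 40 tags (1.19 against 1.17) and 41 to 50 (1.22 against 1.18). It was also higher at 51 to 70 (1.25 against 1.22) and above 150 (1.57 against 1.51). At 71 to 100 (1.27 against 1.28) and 101 to 150 (1.34 against 1.35) it was lower. The highest values among far sites were 2.21 at the tallest site on chromosome 7, 2.14 at chr16:3232725-3232877, 1.97 at chr13:54795257-54795409, 1.93 at chr19:58187725-58187877 (58 tags at 30 positions) and 1.88 at chr10:45346587-45346739 (45 tags at 24 positions). Input at these sites was, in the same order, 8, 28, 4, 12 and 8 tags. The lowest values were 1.03 at chr9:110724049-110724201 and 1.06 to 1.07 at chr4:135946680-135946832, chr6:48338339-48338491, chr12:103543675-103543827 and chr6:54710044-54710196, which held 35 to 47 tags.

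Far sites stood alone more often than overlapped alpha peaks, as did lower alpha peaks far from beta. Another alpha peak lay within 5000 bp of 91 far sites (16.3%, 13.4% to 19.5%), against 42.9% of all alpha peaks outside chromosome 8 and 53.8% of the overlapped strong peaks (52.6% to 54.9%). The median distance to the next alpha centre was 16865 bp for far sites (quartiles 6634 and 44735 bp) and 4241 bp for overlapped peaks (1492 and 12316 bp). It was longer for far sites on all 19 chromosomes. Of the alpha peaks far from beta but under 35 tags, 11.2% at 11 to 20 tags and 16.3% at 21 to 34 tags had another alpha peak within 5000 bp, so this spacing was not peculiar to tall sites. The rule has a part in this, because 57.8% of all alpha peaks are overlapped by beta and none of those can lie close to a far site. Within 100000 bp, where the rule has less hold, 89.5% of far sites (86.6% to 91.7%) and 96.7% of overlapped peaks (96.2% to 97.1%) had another alpha peak.

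**Figure D4:**
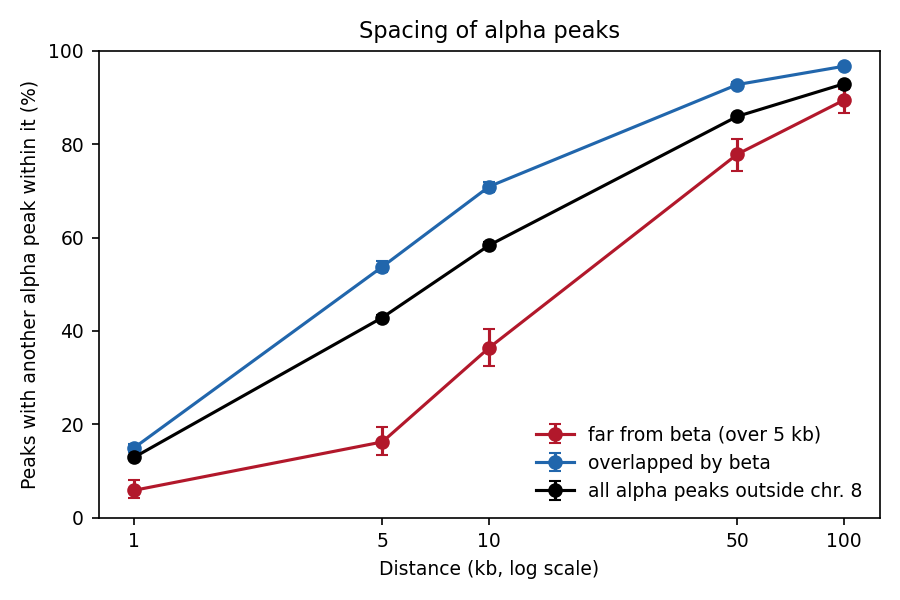
Percent of peaks with another alpha peak centre within a given distance (x axis, kb, log scale), for far sites (red), strong peaks overlapped by beta (blue) and all alpha peaks outside chromosome 8 (black); bars are 95% Wilson intervals. At 5 kb the values are 16.3%, 53.8% and 42.9%, and at 100 kb 89.5%, 96.7% and 92.9%.

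Beyond the reach of the rule, peaks of both receptors occurred around many far sites, though not around all. Between 5000 and 50000 bp from the centre, a far site had on average 2.72 alpha and 2.25 beta peaks, and an overlapped peak 3.87 and 3.79. In this ring 25% of far sites had no alpha peak and 31.25% no beta peak, against 11.5% and 12.5% of overlapped peaks. Between 50000 and 500000 bp the numbers were close, 17.1 alpha and 15.5 beta peaks around far sites and 17.7 and 16.5 around overlapped ones. Of the alpha peaks in the inner ring around far sites, 55.9% were overlapped by beta, against 63.8% around overlapped peaks. In the outer ring the shares were 55.9% and 58.3%. Peaks shared between rings of neighbouring sites were counted each time, so no interval is given.

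For the 91 far sites with another alpha peak within 5000 bp, that neighbour had a median of 26 tags. The median over all alpha peaks outside chromosome 8 was 27, but this is not a like baseline. Through the rule, 0 of these neighbours were overlapped by beta, against 57.8% of all those peaks. Of the 5997 alpha peaks outside chromosome 8 that were far from beta, 3640 held only 11 to 20 tags. The neighbour was itself a far site in 24 cases, a far peak under 35 tags in 60 and a peak with a beta centre in its own reach in 7. Along the chromosomes, the median distance between consecutive far sites was 1825611 bp, and 14 of 541 consecutive pairs lay within 5000 bp.

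The closest pairs of far sites were 510 bp apart on chromosome 13, 527 bp apart on chromosome 10 and 574 bp apart on chromosome 9. On chromosome 13 the windows at 51942883 to 51943035 and at 51943393 to 51943545 held 37 and 47 tags, with 6 input tags each. On chromosome 10 the windows at 128375622 to 128375774 and at 128376149 to 128376301 held 73 and 68 tags. On chromosome 9 those at 57115395 to 57115547 and at 57115969 to 57116121 held 40 and 56. The taller window of a pair held 1.27, 1.07 and 1.40 times the tags of the other.

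A total of 523 stretches between consecutive beta peaks held far sites, and 489 of them held 1 such site. The most in a stretch was 4, on chromosome 5, at 90891726 to 90891878 (44 tags), 90893159 to 90893311 (43), 90897561 to 90897713 (80) and 90898647 to 90898799 (63). Input was 2 to 5 tags at these sites. The 10 kb around each window held 510 to 889 alpha tags outside it, against a median of 157 for all far sites. The density ratio was 4.19 to 6.39, and 4.19 was the lowest value of any far site. A further 2 alpha peaks of 69 and 41 tags followed in the same stretch but were 2564 and 1019 bp from a beta centre. One stretch on chromosome 3 held 3 far sites, at 146280073 to 146280225 (36 tags), 146283898 to 146284050 (41) and 146291735 to 146291887 (48). The 10 kb around each of these windows held 413 to 564 alpha tags, and the density ratio was 4.68 to 5.66. These small groups were picked for their number of sites after the values were seen.

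The far sites had fewer alpha tags in the surrounding 10 kb than overlapped peaks. The 10 kb around a far site held a median of 157 tags outside the window (quartiles 118 and 215), against 215 (147 and 311) for overlapped peaks. The rule has a part in this, because alpha peaks overlapped by beta cannot lie close to a far site. With no other alpha peak within 5000 bp, the medians were 147 and 157 tags. Density in the window over density in these surroundings had a median of 21.4 at far sites and 17.7 at overlapped peaks. Among sites with no other alpha peak within 5000 bp, the medians were 23.2 for 469 far sites (interval 22.17 to 24.98) and 23.6 for 3206 overlapped peaks (22.9 to 24.1), so the pooled order turned within these intervals. The far sites in that selection were lower in height, with a median of 46.0 tags against 53. By height class their density was higher in 5 of 6: 21.96 against 20.76 at 41 to 50 tags, 26.1 against 24.1 at 51 to 70, 32.2 against 29.0 at 71 to 100, 48.9 against 36.7 at 101 to 150 and 65.1 against 47.7 above 150. At 35 to 40 tags it was 17.2 against 17.5. No interval was made for these class medians. The classes of 101 to 150 and above 150 tags held 34 and 28 far sites. There the far sites were also taller, with medians of 118.5 against 115 and 196 against 179.5 tags, and height enters the density.

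Far sites occurred on all 19 chromosomes compared. Between 18 (chromosome 18) and 53 (chromosome 5) were found on each of the 18 autosomes, or 1.83 to 3.97 per 10 Mb. Their share of the strong alpha peaks ran from 5.10% on chromosome 9 (3.45% to 7.47%) to 8.49% on chromosome 5 (6.55% to 10.9%), and these intervals overlap. On the X chromosome 6 of 36 strong peaks were far from beta, 16.7% with an interval of 7.87% to 31.9%, which reaches down into the range of the autosomes. The 6 sites on the X chromosome held 45 to 115 tags.

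Mean input was higher at far sites than at overlapped peaks on 19 of 19 chromosomes. The gap was smallest on chromosome 12, with 3.64 against 3.53 tags. When the site with the most input was left out of each chromosome, the far mean was higher on 17 chromosomes. It was lower on chromosome 12 (3.42 against 3.53) and on the X chromosome (1.40 against 2.28), where 1 of the 6 sites held 24 input tags and the others 1 or 2. Peaks with a beta centre within 5000 bp but no overlap had a higher mean than far sites on chromosomes 2, 11, 12, 13, 14 and 18. On chromosome 18 the means were 4.74 and 4.28. On the other chromosomes the far mean was the higher one.

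**Figure D5:**
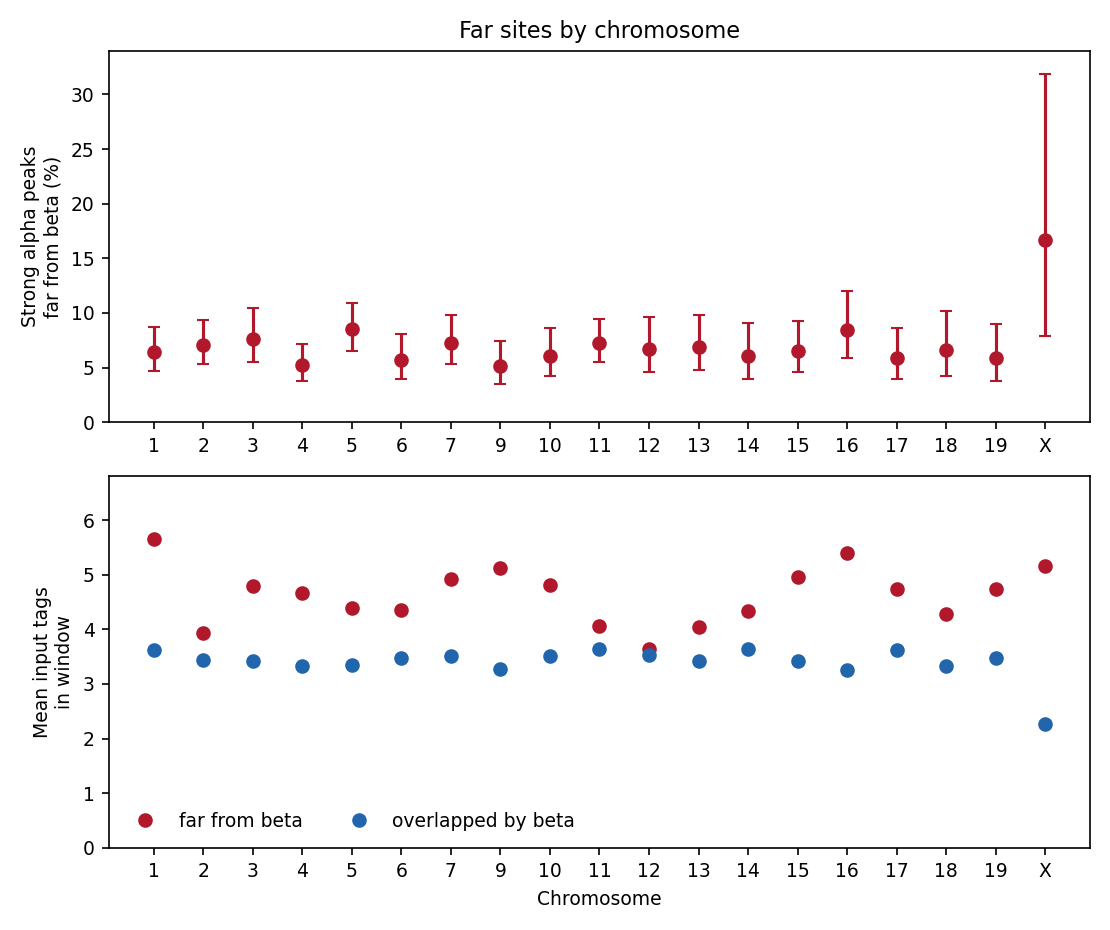
Top, percent of strong alpha peaks that were far from beta on each chromosome, with 95% Wilson intervals; bottom, mean input tags in the window at far sites (red) and at strong peaks overlapped by beta (blue). The autosomes lie between 5.10% and 8.49%, the X chromosome at 16.7% rests on 6 sites, and the red point is above the blue one on each chromosome.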

How the data were processed

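The members of the set and all lists were chosen with earlier results of these data known. The authors deposited 1 peak list each for the alpha and the beta receptor. Per the file headers, each row gives 4 raw counts (unique tag positions, tags, tags in 10000 bp, and input tags), a peak score and a false discovery rate; this deposited p-value-like column was 0 in every row and was not used. The deposited peak score, a whole number from the authors' peak caller on an unstated scale, served to order sites at equal height and, in an alternative, to match the lists. Per the submitters' processing notes, Bowtie, HOMER and mm9 were used; the sources used here give neither versions nor depth.

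Distances are between window midpoints; overlap means at least 1 bp shared. Density over surroundings divides the tags per bp of the window by those of the rest of the 10 kb. A pseudocount of 1 was used for tags over input. Shares have Wilson intervals, mean counts exact Poisson intervals, and an observed 0 allows 3 counts. Tags at one position need not be independent molecules, so intervals cover counting error only. Named sites are the 20 tallest, the 5 with the greatest distance, most input, and lowest or highest tags per unique position, the 3 closest pairs, and those at the edges of the rule. The distance and overlap rules were tested on simulated lists, where all 500 far sites were found. Location, gene lists and motifs planned for mm9 were not analysed here. Software was numpy 2.4.6, scipy 1.17.1 and pandas 2.3.3 under Python 3.11.15.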

Additional observations from a re-analysis of the deposited data

Results flagged for a closer look

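Chromosome 8 carried 542 alpha peaks with at least 35 tags that could not be set against beta, for which 0 peaks were listed on that chromosome. Their median was 54.0 tags and their mean input 3.53 tags; the list and the lower limit of 35 tags select for tags above input. With 1 library per antibody, no group was large enough to look for an outlying sample.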

How the results depend on the processing

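The number of far sites changed with each limit in the rule, more in some alternatives than in others. It was 330 beyond 20000 bp, 1476 for no overlapping beta window, 225 at 50 tags or more, 1421 at 25 tags or more and 353 where tags reached 8 times the input plus 1, against 560. As shares of the strong peaks these were 3.92%, 17.6%, 4.80%, 10.9% and 5.25%, against 6.66%. Smaller changes in number were seen beyond 2000 bp (769 sites, 9.14%) and beyond 10000 bp (435, 5.17%). With beta peaks of at least the alpha list's lowest score there were 636 (7.56%). Ranking by unique positions gave 547 (6.50%).

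At 50 tags or more, far sites had a median of 71.0 tags against 70 for overlapped peaks, so the order of the medians turned; mean input was 5.40, tags per unique position 1.29, density over surroundings 29.2 and the share with another alpha peak within 5000 bp 13.3%. Beyond 20000 bp, mean input was 4.38, density 23.1 and that share 11.8%. With tags at least 8 times input plus 1, the median was 50 tags, mean input 3.22 (2.86 at overlapped peaks) and density 23.3. Chosen after the data were seen, sites under 10 input tags had a mean input of 4.13 against 3.32, and sites with no other alpha peak within 5000 bp a density of 23.2 against 23.6. Mean input was higher at far sites, and another alpha peak less frequent, in all alternatives run for them. Leaving out the X chromosome moved none of these 5 values beyond its interval.

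No paired analysis was possible because there was a single library for each antibody. The alternatives for location and motifs were not run, since they need mm9 genes or sequence. Total depth is unknown, so which far sites a deeper beta library would add a peak to was not tested.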
